A study of Mus musculus with 8 samples.

Results

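The genes described here encode the TGF-beta ligands (Tgfb1, Tgfb2, Tgfb3), the latent TGF-beta binding proteins (Ltbp1, Ltbp2, Ltbp3, Ltbp4), the surface carrier of the latent ligand (Lrrc32) and the receptor kinases (Tgfbr1, Tgfbr2). They were taken by symbol, as the transcript clusters whose only gene symbol is one of these names, and all 10 were found, each with 1 transcript cluster, among 17501 named genes. Lrrc32 was chosen by its lower late-passage values on these same arrays, so its late-minus-early difference, overall and within any group, is given as a description without a test. The other 9 were listed for their place in the pathway.

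TGF-beta is secreted in a latent form, in which the cleaved propeptide stays folded around the growth factor. Latent binding proteins anchor this complex to microfibrils of the extracellular matrix, LRRC32 holds it at the cell surface, and integrins or proteases release it. The freed ligand binds the type II receptor kinase, which phosphorylates the type I kinase, which in turn phosphorylates Smad proteins. Fibroblasts make ligand, matrix and receptors, and Smurf2 is a ubiquitin ligase that, brought in by Smad7, marks the type I receptor for degradation.

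RNA of mouse embryonic fibroblasts, grown in medium with 10% fetal bovine serum, was hybridised to 8 arrays. The groups were late-passage Smurf2-/- cells of the mixed BL background (129SVJ and NIH Black Swiss, passage 33, 3 embryos pooled) and of C57B6 (passage 28, 1 embryo), late-passage wild-type cells of mixed BL (passage 33, 2 embryos pooled) and C57B6 (passage 28, 1 embryo), and the early-passage cells of the same 4 kinds (passage 6 in mixed BL, passage 7 in C57B6). Each of these 8 combinations has 1 array, so each genotype, background and passage class has 4. How the Smurf2 allele was made is not given in the sources used here, and the labels name embryonic day 14.5 in one field and day 11.5 in another. The labels do not say whether the late and early arrays of a genotype and background were passages of one culture. The p-values thus rest on array-to-array spread alone, and part of that may be technical. If each such pair was one culture, the 4 arrays of a genotype or background were not independent, and n = 4 counts arrays.

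Each value is a log2 intensity from which the median of its transcript cluster was subtracted, so 0 is the middle of that gene's own arrays and levels of different genes cannot be compared. Smurf2 was at -1.21 to -0.43 in Smurf2-/- arrays and at 0.43 to 0.96 in wild-type arrays. Sex-linked genes moved with genotype as well, Xist at -2.07 to -1.53 in Smurf2-/- and 1.53 to 3.20 in wild-type arrays and Y-linked Uty at 0.99 to 1.67 in Smurf2-/- and -1.07 to -0.99 in wild-type arrays, so in every genotype difference below loss of Smurf2 and the sex of the cells cannot be told apart. The late Smurf2-/- C57B6 array had the widest spread over all clusters, with an SD of 0.365 against 0.226 to 0.348 in the other arrays. A coarse level could be read from the rounding step that centring left in the values. In 6 of the 10 genes the differences between arrays were whole multiples, within 0.15 of a step, of the step of numbers of 8 or more. These were Tgfb1, Tgfb3, Ltbp1, Ltbp3, Lrrc32 and Tgfbr2. Log2 intensities of 8 or more in all 8 arrays leave this step. Numbers under 8 have a finer step, but some fall on the coarser one by chance. The step thus cannot place every array at 8 or more. The same held for 22.4% of all clusters. In Tgfb2, Ltbp2, Ltbp4 and Tgfbr1 at least 1 array was under 8. Of the fibroblast markers 7 of 12 had the step of numbers of 8 or more in all arrays. Of the markers of endothelium, megakaryocytes, T cells, macrophages and epithelium none had it, out of 10, 5, 7, 8 and 8.

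Promoter sequence is shown for the latent binding protein genes that stood farthest apart between late and early passage, Ltbp4 and Ltbp2, and for the most variable ligand gene with an entry, Tgfb2. Each window runs from 250 bases before to 50 bases after a RefSeq transcript start in GRCm38.p6, all 3 genes on the minus strand, printed 5′ to 3′ along the gene. Capitals mark matches, on either strand, to 8 short motifs: the Smad box CAGAC, the AP-1 site TGACTCA, the C/EBP-ATF site TGATGNAA, the TEAD site GGAATG, the E box CACGTG, the TATA box TATAAA, the GC box GGGCGG and the cAMP response element TGACGTCA.
Ltbp4, upstream start, chr7:27337563-27337862: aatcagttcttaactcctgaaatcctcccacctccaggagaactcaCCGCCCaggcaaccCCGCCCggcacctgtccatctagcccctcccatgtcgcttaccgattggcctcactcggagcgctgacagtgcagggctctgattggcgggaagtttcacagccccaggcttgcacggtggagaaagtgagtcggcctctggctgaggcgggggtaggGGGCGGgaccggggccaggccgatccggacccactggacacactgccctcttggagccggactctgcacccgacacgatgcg
Ltbp4, downstream start, chr7:27333599-27333898: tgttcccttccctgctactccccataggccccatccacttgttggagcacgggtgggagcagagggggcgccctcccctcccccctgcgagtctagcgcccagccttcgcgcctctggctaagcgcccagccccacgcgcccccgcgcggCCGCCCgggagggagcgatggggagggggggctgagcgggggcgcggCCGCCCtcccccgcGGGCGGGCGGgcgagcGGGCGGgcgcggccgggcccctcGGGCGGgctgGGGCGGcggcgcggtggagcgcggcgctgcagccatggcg
Ltbp2, chr12:84876442-84876741: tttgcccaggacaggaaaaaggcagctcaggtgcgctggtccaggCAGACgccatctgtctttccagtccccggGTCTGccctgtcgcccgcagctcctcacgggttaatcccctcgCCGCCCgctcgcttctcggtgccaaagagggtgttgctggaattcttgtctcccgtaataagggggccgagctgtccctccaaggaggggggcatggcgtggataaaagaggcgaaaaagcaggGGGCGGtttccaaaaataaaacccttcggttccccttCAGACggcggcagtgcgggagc
Tgfb2, chr1:186705940-186706239: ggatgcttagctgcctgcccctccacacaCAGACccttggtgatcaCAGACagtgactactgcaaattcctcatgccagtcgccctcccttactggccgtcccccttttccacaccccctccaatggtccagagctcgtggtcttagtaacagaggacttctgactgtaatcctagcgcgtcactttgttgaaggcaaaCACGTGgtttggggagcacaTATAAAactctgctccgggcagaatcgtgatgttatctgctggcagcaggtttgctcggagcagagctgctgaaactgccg

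The Ltbp4 windows held GC boxes alone, 3 at the upstream and 7 at the downstream start, with a GC content of 64.3% and 80.3%. A further Ltbp4 start overlaps the downstream one and is not printed. It also held GC boxes alone and is counted among the 12 windows below, so those windows are not all independent. Ltbp2 held 3 Smad boxes and 2 GC boxes. Tgfb2 held 2 Smad boxes, an E box and a TATA box at position -31 from the start, and no GC box, at a GC content of 54.3%. Smad boxes occurred in 7 of the 12 windows of the 8 genes with an entry (Tgfb1, Tgfb2, Ltbp1, Ltbp2, Ltbp3, Ltbp4, Tgfbr1, Tgfbr2) and in 49.6% of 32851 windows of the same length, and GC boxes in 6 of 12 and in 35.7%. The AP-1 site was found at Ltbp3 (5.2% of all windows), where it overlaps a Smad box, and the cAMP response element at the first Ltbp1 start (1.79%). E and TATA boxes, which occur in 7.15% and 13.6% of all windows, were found at Tgfb2, and the TEAD and C/EBP-ATF sites (14.7% and 3.97%) in no window of these genes. A match is a run of letters and not a measured binding site, and the array cannot tell which start a transcript used.

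The first comparison was of late with early passage, which asks how long culture altered the genes that store, present and receive TGF-beta. Among the 9 genes tested, Ltbp4 was higher and Ltbp2 lower at late passage in every genotype and background, by 1.40 ± 0.19 and -1.48 ± 0.58 (SE), and neither passed the test over all genes. The ligand genes Tgfb2 and Tgfb3 differed mainly in Smurf2-/- C57B6 cells, and neither receptor gene differed in one direction throughout.

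**Figure D1:**
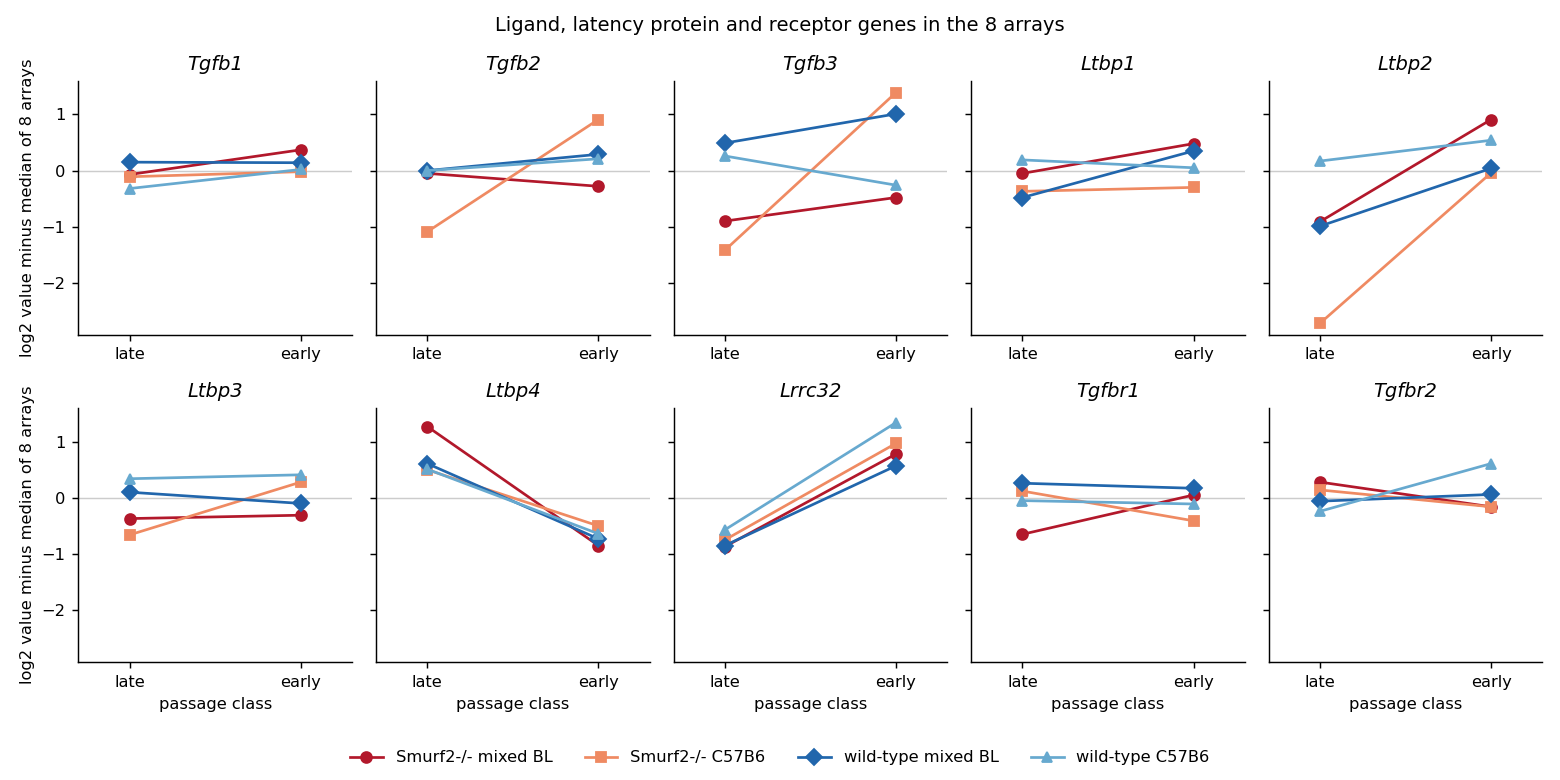
Log2 value minus the gene's median over the 8 arrays (vertical axis) at late and early passage (horizontal axis) for each of the 10 genes. Each point is 1 array, and lines join the arrays of 1 genotype and background. For Lrrc32 the late arrays lie at -0.87 to -0.57 and the early arrays at 0.57 to 1.34, and for Ltbp4 the late arrays lie at 0.50 to 1.27 and the early arrays at -0.85 to -0.50.

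Lrrc32 encodes a leucine-rich repeat transmembrane protein, also called GARP, known for presenting latent TGF-beta on regulatory T cells and platelets. Late arrays held -0.87 (Smurf2-/- mixed BL), -0.75 (Smurf2-/- C57B6), -0.85 (wild-type mixed BL) and -0.57 (wild-type C57B6), and early arrays held 0.78 (Smurf2-/- mixed BL), 0.97 (Smurf2-/- C57B6), 0.57 (wild-type mixed BL) and 1.34 (wild-type C57B6). All late arrays lay below all early ones, with means of -0.76 ± 0.14 at late and 0.91 ± 0.33 at early passage (SD, n = 4 each). The difference was -1.67 ± 0.12 (SE), 3.19-fold lower at late passage, and was -1.65, -1.72, -1.42 and -1.91 in Smurf2-/- mixed BL, Smurf2-/- C57B6, wild-type mixed BL and wild-type C57B6 cells. Over all genes 4.59% were lower at late passage with no overlap of the arrays, and these values are what the gene was chosen for. A choice by this fall may favour a gene with a like difference in every genotype and background. The interactions of Lrrc32 with passage therefore cannot show that the falls were equal. The interaction of genotype with passage was -0.02 ± 0.25 (SE, limma adjusted p = 1) and that of background with passage 0.28 ± 0.22 (SE, limma adjusted p = 0.799), neither past the threshold of 0.05.

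Markers of other cell types were summed per array, as centred values without a level, and the sums of some lists separated late from early arrays. Of the 8 macrophage and leukocyte markers 0 were called for passage, with 6 lower, 2 higher and a median of -0.06. They summed to -1.05 to -0.36 at late and 0.42 to 4.45 at early passage. The largest part came from Lyz2 and Cd68, named like the other markers here and Nrros after their values were seen, with Lyz2 at -0.49 to -0.13 at late and 0.13 to 3.20 at early passage, whereas Ptprc, the pan-leukocyte antigen, lay between -0.05 and 0.19 in all arrays. Csf1r and Tyrobp were the 2 on the higher side, at 0.09 ± 0.16 and 0.07 ± 0.08 (SE, limma adjusted p of 0.777 and 0.669). The sums were -0.51 to 1.29 at late and 0.08 to 1.43 at early passage for 10 endothelial markers and -1.08 to 1.48 at late and -1.19 to 1.12 at early passage for 5 megakaryocyte markers. For 7 T cell markers, all 7 higher at late passage with 0 called, they were 0.00 to 0.92 at late and -0.28 to -0.09 at early passage, without overlap. The median difference of these 7 was 0.06. Over all genes 57.5% were higher and 42.5% lower at late passage, with a median of 0.03. The sum of 0.92 was in the late Smurf2-/- C57B6 array, where the median over all clusters was 0.047. An offset of the whole array was not told apart from a change in these markers. For 12 fibroblast markers they were -9.47 to 7.26 at late and -1.34 to 8.29 at early passage. The part of these markers in the Lrrc32 difference was not tested, and in bulk RNA fewer cells of a type and less RNA per cell cannot be told apart. Nrros, the Lrrc32 relative that presents latent TGF-beta on macrophages and microglia, lay at -0.13 to 0.19 in all arrays.

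Ltbp4 encodes a latent binding protein that also organises elastic fibres in lung and vessel wall. Late arrays held 1.27 (Smurf2-/- mixed BL), 0.50 (Smurf2-/- C57B6), 0.61 (wild-type mixed BL) and 0.51 (wild-type C57B6), and early arrays held -0.85 (Smurf2-/- mixed BL), -0.50 (Smurf2-/- C57B6), -0.73 (wild-type mixed BL) and -0.64 (wild-type C57B6). The late array was higher in 4 of 4 pairs (15.1% of all genes were), and every late array lay above every early one (5.44%), with means of 0.72 ± 0.37 at late and -0.68 ± 0.15 at early passage (SD, n = 4 each). The difference was 1.40 ± 0.19 (SE), or 2.64-fold, and did not pass the test over all genes (limma adjusted p = 0.0906, 0.077 to 0.349 over the alternatives). Within mixed BL it was 1.73 ± 0.20 (SE, limma adjusted p = 0.0553) and within C57B6 1.07 ± 0.20 (SE, limma adjusted p = 0.318), and the interaction of background with passage was 0.65 ± 0.29 (SE, limma adjusted p = 0.604). Within Smurf2-/- cells it was 1.55 ± 0.27 and within wild-type cells 1.25 ± 0.27 (SE, limma adjusted p of 0.135 and 0.551).

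Ltbp2 encodes the family member that builds microfibrils, in the lens zonule for example, and does not bind latent TGF-beta. Late arrays held -0.91 (Smurf2-/- mixed BL), -2.72 (Smurf2-/- C57B6), -0.99 (wild-type mixed BL) and 0.17 (wild-type C57B6), and early arrays held 0.91 (Smurf2-/- mixed BL), -0.04 (Smurf2-/- C57B6), 0.04 (wild-type mixed BL) and 0.54 (wild-type C57B6). Late and early arrays overlapped because late wild-type C57B6 cells stood at the level of early ones. The difference was -1.48 ± 0.58 (SE, limma adjusted p = 0.279), lower in 4 of 4 matched pairs of arrays, as for 11.9% of all genes. Without the late Smurf2-/- C57B6 array it was -0.90 ± 0.41 (SE, limma adjusted p = 0.374). Its values spanned 3.63 log2 units, a wider range than in 99.4% of genes.

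Ltbp1 and Ltbp3, both of which bind the latent complex covalently, varied less. Ltbp1 held -0.05 (Smurf2-/- mixed BL), -0.37 (Smurf2-/- C57B6), -0.48 (wild-type mixed BL) and 0.19 (wild-type C57B6) in late arrays and 0.48 (Smurf2-/- mixed BL), -0.30 (Smurf2-/- C57B6), 0.35 (wild-type mixed BL) and 0.05 (wild-type C57B6) in early arrays. It was lower at late passage in mixed BL, by -0.53 in Smurf2-/- and -0.83 in wild-type cells, and close to level in C57B6, at -0.06 and 0.14. The interaction of background with passage was -0.72 ± 0.37 (SE, limma adjusted p = 0.67), so that contrast between backgrounds did not pass. Ltbp3 held -0.37 (Smurf2-/- mixed BL), -0.66 (Smurf2-/- C57B6), 0.10 (wild-type mixed BL) and 0.34 (wild-type C57B6) in late arrays and -0.31 (Smurf2-/- mixed BL), 0.28 (Smurf2-/- C57B6), -0.10 (wild-type mixed BL) and 0.41 (wild-type C57B6) in early arrays. The Smurf2-/- C57B6 pair differed by -0.94 and the other pairs by -0.07 to 0.20. The fitted difference of -0.22 ± 0.19 (SE, limma adjusted p = 0.576) was -0.01 ± 0.09 without the late and -0.06 ± 0.17 without the early array of that pair (SE).

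**Figure D2:**
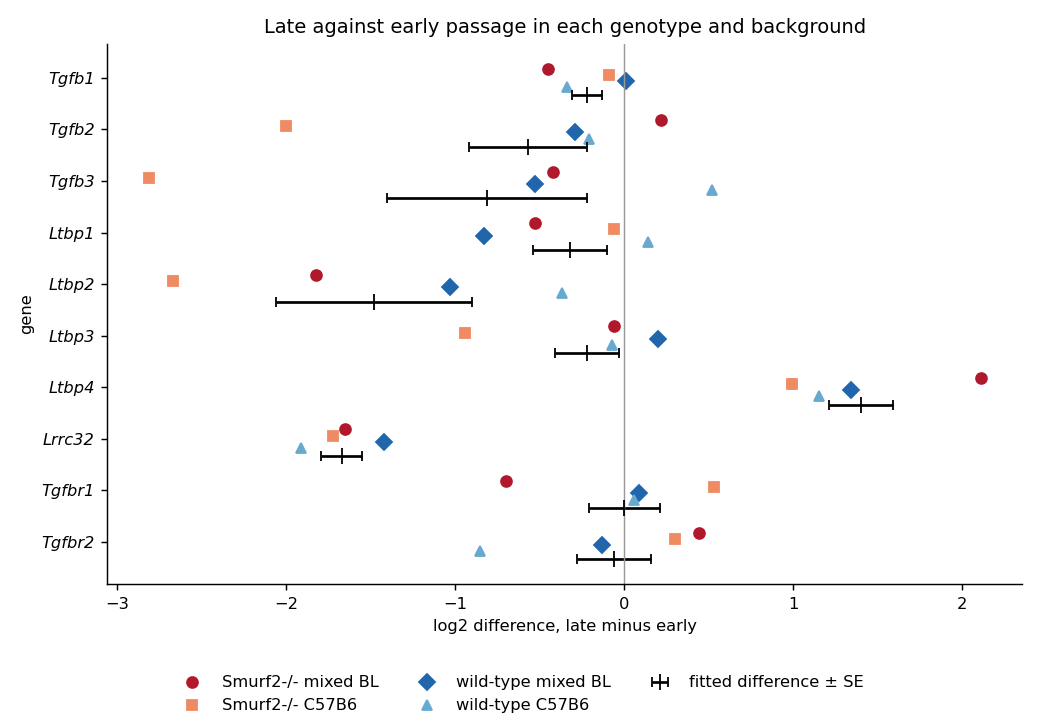
Log2 difference between late and early arrays (horizontal axis) for the 10 genes. Coloured points are the 4 pairs of arrays of 1 genotype and background, and the black mark and bar are the fitted difference ± SE, -1.67 ± 0.12 for Lrrc32, 1.40 ± 0.19 for Ltbp4 and -1.48 ± 0.58 for Ltbp2. For Tgfb2, Tgfb3, Ltbp2 and Ltbp3 the pair farthest to the left is Smurf2-/- C57B6.

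The 3 ligand genes did not share a pattern. Tgfb1, the main isoform of platelets and immune cells, kept within -0.32 to 0.37 in all arrays. It held -0.07 (Smurf2-/- mixed BL), -0.11 (Smurf2-/- C57B6), 0.15 (wild-type mixed BL) and -0.32 (wild-type C57B6) in late arrays and 0.37 (Smurf2-/- mixed BL), -0.02 (Smurf2-/- C57B6), 0.14 (wild-type mixed BL) and 0.02 (wild-type C57B6) in early arrays. The passage difference was -0.22 ± 0.09 (SE, limma adjusted p = 0.301), a 1.16-fold difference.

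Tgfb2, an isoform needed for heart and skeletal development, stood apart in 1 pair of arrays. Late arrays held -0.05 (Smurf2-/- mixed BL), -1.09 (Smurf2-/- C57B6), 0.00 (wild-type mixed BL) and 0.00 (wild-type C57B6), and early arrays held -0.28 (Smurf2-/- mixed BL), 0.91 (Smurf2-/- C57B6), 0.29 (wild-type mixed BL) and 0.21 (wild-type C57B6). Smurf2-/- C57B6 cells thus had both the highest and the lowest value of the 8 arrays, with a difference of -2.0 between late and early, whereas the other pairs differed by -0.29 to 0.22. Fitted over all arrays the difference was -0.57 ± 0.35 (SE, limma adjusted p = 0.451), and it was -0.22 ± 0.26 without the late and -0.20 ± 0.22 without the early Smurf2-/- C57B6 array (SE).

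Tgfb3, the isoform required for fusion of the palate, showed the same pair at its extremes. Late arrays held -0.90 (Smurf2-/- mixed BL), -1.42 (Smurf2-/- C57B6), 0.49 (wild-type mixed BL) and 0.26 (wild-type C57B6), and early arrays held -0.48 (Smurf2-/- mixed BL), 1.39 (Smurf2-/- C57B6), 1.01 (wild-type mixed BL) and -0.26 (wild-type C57B6). The late and early arrays overlapped, and the difference was -0.81 ± 0.59 (SE, limma adjusted p = 0.506). It was -0.49 ± 0.65 without the late and -0.13 ± 0.22 without the early Smurf2-/- C57B6 array (SE). Without the early wild-type C57B6 array it was -1.32 ± 0.49 (SE, limma adjusted p = 0.302). Within Smurf2-/- cells it was -1.62 ± 0.74 (SE, limma adjusted p = 0.408) and within wild-type cells the fitted difference was within 0.01 of 0 with the same SE, but their contrast, the interaction, did not pass at -1.61 ± 1.05 (SE, limma adjusted p = 1). Tgfb2 and Tgfb3 spanned 2.00 and 2.81 log2 units, wider than 96% and 98.4% of genes, and Tgfb1 spanned 0.69.

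The receptor genes kept within 1 log2 unit. Tgfbr1, the type I kinase that Smurf2 marks for degradation as a protein, held -0.65 (Smurf2-/- mixed BL), 0.12 (Smurf2-/- C57B6), 0.26 (wild-type mixed BL) and -0.05 (wild-type C57B6) in late arrays and 0.05 (Smurf2-/- mixed BL), -0.41 (Smurf2-/- C57B6), 0.17 (wild-type mixed BL) and -0.11 (wild-type C57B6) in early arrays. Its fitted passage difference was within 0.01 of 0, with an SE of 0.21 and a limma adjusted p of 0.997, and it was 0.10 after quantile normalisation. Tgfbr2, the ligand-binding type II kinase, held 0.28 (Smurf2-/- mixed BL), 0.14 (Smurf2-/- C57B6), -0.06 (wild-type mixed BL) and -0.24 (wild-type C57B6) in late arrays and -0.16 (Smurf2-/- mixed BL), -0.16 (Smurf2-/- C57B6), 0.06 (wild-type mixed BL) and 0.61 (wild-type C57B6) in early arrays. Late Smurf2-/- arrays lay above early ones by 0.44 in mixed BL and 0.30 in C57B6, and late wild-type arrays lay below early ones by -0.13 and -0.85. The interaction of genotype with passage was 0.86 ± 0.28 (SE) and failed the test over all genes (limma adjusted p = 0.863).

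In all, limma called 0 of the 9 genes tested for passage (adjusted p of 0.0906 to 0.997), and 2 of them, Ltbp4 and Ltbp2, had an unadjusted p under 0.05. The test called 0.0171% of all 17501 genes, and 17.3% had an unadjusted p under 0.05, so a count of 2 in 9 is near what all genes showed. The median passage difference of these 9, Lrrc32 left out, was -0.22, against 0.03 over all genes. By pair their median was -0.42, -0.09, -0.13 and -0.07 in Smurf2-/- mixed BL, Smurf2-/- C57B6, wild-type mixed BL and wild-type C57B6 cells.

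Smurf2-/- cells were then compared with wild-type cells, which asks whether the genes upstream of Smads differed without this ligase. Ltbp3 was the only one of the 10 that lay lower in Smurf2-/- cells in all 4 matched pairs. Tgfb3 was lower in 3 of 4, as were Tgfb2, Tgfbr1 and Lrrc32. Limma called 0 of 10 (adjusted p of 0.651 to 0.937), with 0 at an unadjusted p under 0.05, where 0.0286% and 7.55% of all genes reached these thresholds. In none of the 10 were the 4 Smurf2-/- arrays apart from the 4 wild-type arrays, as they were for 1.14% of genes on the higher and 1.02% on the lower side.

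Ltbp3 differed by -0.47 and -1.0 at late passage in mixed BL and C57B6 and by -0.21 and -0.13 at early passage. The means were -0.27 ± 0.39 in Smurf2-/- and 0.19 ± 0.23 in wild-type arrays (SD, n = 4 each), a difference of -0.45 ± 0.19 (SE, limma adjusted p = 0.651). Lower values in 4 of 4 pairs were seen in 9.35% of all genes, and higher values in 4 of 4 pairs in 11% and in 0 of these 10. Within late passage the difference was -0.74 ± 0.23 (SE, limma adjusted p = 0.284) and within early passage -0.17 ± 0.23 (SE, limma adjusted p = 1). Without the late Smurf2-/- C57B6 array the fitted difference was -0.24 ± 0.09 (SE, limma adjusted p = 0.886).

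**Figure D3:**
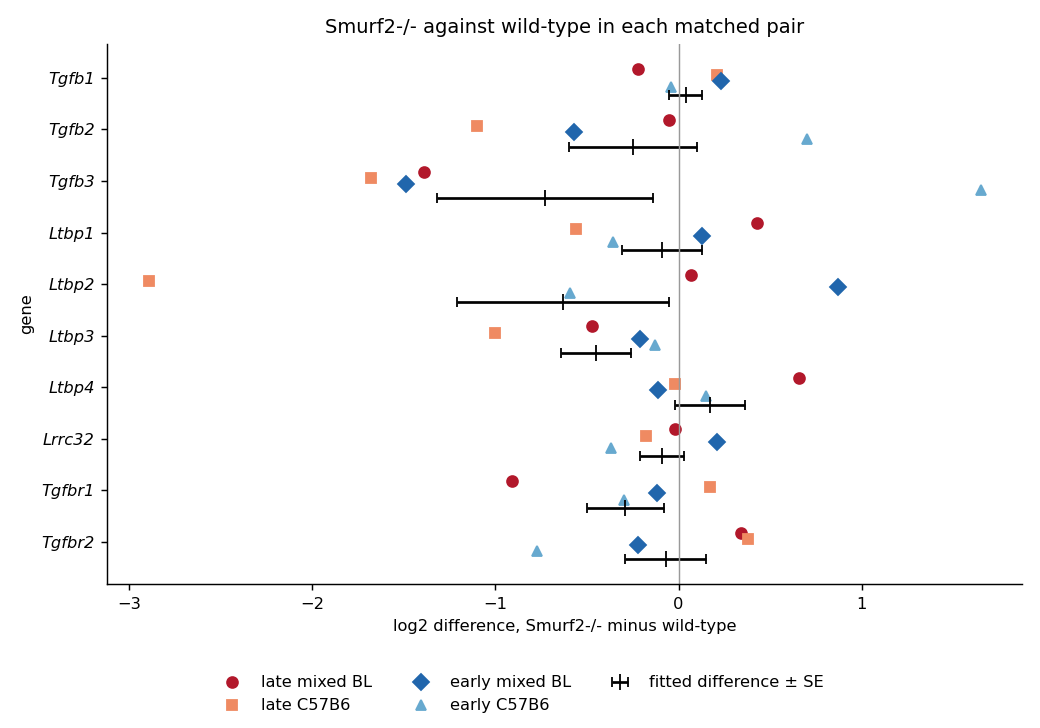
Log2 difference between Smurf2-/- and wild-type arrays (horizontal axis) for the 10 genes. Coloured points are the 4 pairs of arrays of 1 passage class and background, and the black mark and bar are the fitted difference ± SE. Ltbp3 has all 4 points left of 0, at -1.0 to -0.13, and Tgfb3 has 3 points between -1.68 and -1.39 and 1 at 1.65.

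Tgfb3 differed by -1.39 and -1.68 at late passage in mixed BL and C57B6 and by -1.49 at early passage in mixed BL, but by 1.65 at early passage in C57B6. The means were -0.35 ± 1.22 in Smurf2-/- and 0.37 ± 0.53 in wild-type arrays (SD, n = 4 each), and the difference of -0.73 ± 0.59 (SE, limma adjusted p = 0.746) was within this spread. Within late passage it was -1.53 ± 0.74 (SE, limma adjusted p = 0.471). Over both passage classes it was -0.41 ± 0.65 without the late and -1.41 ± 0.22 without the early Smurf2-/- C57B6 array, -1.24 ± 0.49 without the early wild-type C57B6 array, and -0.45 ± 0.66 and -0.48 ± 0.67 without the early Smurf2-/- and the late wild-type mixed BL array (SE). None of the fits with 1 array left out passed, with limma adjusted p of 0.53 to 0.94.

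Ltbp2 was at odds between backgrounds. Its differences were 0.07 at late and 0.87 at early passage in mixed BL, and -2.89 at late and -0.59 at early passage in C57B6. The interaction of genotype with background was 2.21 ± 0.79 (SE, limma adjusted p = 0.939). The late Smurf2-/- C57B6 array, where Ltbp2 was lowest, enters both of these contrasts.

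Tgfbr1 RNA averaged -0.22 ± 0.37 in Smurf2-/- and 0.07 ± 0.17 in wild-type arrays (SD, n = 4 each), a difference of -0.29 ± 0.21 (SE, limma adjusted p = 0.726). The difference was -0.06 ± 0.11 without the late Smurf2-/- mixed BL array (SE, limma adjusted p = 0.841). Without the late Smurf2-/- C57B6 array it was -0.48 ± 0.17 (SE, limma adjusted p = 0.886). Lrrc32 differed by -0.09 ± 0.12 (SE, limma adjusted p = 0.84), and by 0.11 after quantile normalisation. Ltbp4, Tgfb1, Tgfbr2 and Ltbp1 differed by 0.17 ± 0.19, 0.04 ± 0.09, -0.07 ± 0.22 and -0.09 ± 0.22 (SE), each with 2 of 4 pairs on either side. Tgfb2 differed by -0.25 ± 0.35 (SE), and by 0.09 ± 0.26 (SE) without the late Smurf2-/- C57B6 array. None of these was larger than the spread between arrays.

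The mixed BL and C57B6 backgrounds were compared last. They also differed in passage number, 33 against 28 at late and 6 against 7 at early passage. Mixed BL cells came from 2 or 3 pooled embryos and C57B6 cells from 1. In every contrast between backgrounds, above and below, these cannot be told apart from the background itself. Tgfb1 was higher in mixed BL in 4 of 4 pairs (10.4% of all genes were), by 0.04 to 0.47, with means of 0.15 ± 0.18 in mixed BL and -0.11 ± 0.15 in C57B6 (SD, n = 4 each). The difference was 0.25 ± 0.09 (SE, limma adjusted p = 0.315). Lrrc32 was lower in mixed BL in 4 of 4 pairs (9.93% of all genes were), by -0.77 at early passage in wild-type cells and by -0.29 to -0.12 in the others, and the fitted difference was -0.34 ± 0.12 (SE, limma adjusted p = 0.292). These were the 2 of 10 with an unadjusted p under 0.05, against 13.5% of all genes. Choosing Lrrc32 by its passage difference may have favoured a small SE in this fit, so its place in that count is no support. Limma called 0 of 10 where it called 0.08% of genes. In none of the 10 were the 4 mixed BL arrays apart from the 4 C57B6 arrays, as they were for 3.02% of genes on the higher and 2.89% on the lower side. Tgfb3 differed by 0.04 ± 0.59 (SE), and by -0.10 after quantile normalisation.

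Within single levels and for the interactions limma again called 0 of the genes tested, and the counts at an unadjusted p under 0.05 were small. For late minus early passage they were 2 of 9 within Smurf2-/- cells (14.8% of all genes, none called) and 1 of 9 within wild-type cells (7.25%, none called). Within mixed BL they were 2 of 9 (16.4%, with 0.486% called) and within C57B6 2 of 9 (10.8%, none called). For Smurf2-/- minus wild-type they were 1 of 10 within late passage (13.4%, none called), the Ltbp3 difference given above, and 0 of 10 within early passage (1.09%, with 0.00571% called). Within mixed BL they were 0 of 10 (3.98%, none called) and within C57B6 1 of 10 (5.86%, none called), which was Ltbp2. The interaction of genotype with passage had 1 of 10 (5.35%), Tgfbr2, that of background with passage 0 of 10 (9.19%), and that of genotype with background 1 of 10 (3.18%), Ltbp2, with 0.0% of all genes called in each.

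The remaining parts of the TGF-beta system were described with 5 further lists, of which 6 genes (Dcn, Col1a1, Col1a2, Col3a1, Acta2, Cnn1) are also fibroblast or smooth muscle markers here. All 12 fibroblast markers were lower at late passage, median -0.30 with 0 called, and the part of this in the list medians below was not tested. For passage 0 of their genes were called, and for genotype 0. Of 19 measured genes that process, store or activate latent TGF-beta, 14 were lower at late passage, with a median of -0.35 against 0.03 for all genes, and 8 had an unadjusted p under 0.05, all lower. Over all genes 42.5% were lower, and 10.3% were lower with an unadjusted p under 0.05. Lower values at late passage without overlap were seen in 2 of these 19 genes and in 4.59% of all genes. Mmp14, a membrane-anchored protease that can release the ligand, differed by -0.70 ± 0.12 (SE). It held -0.80 to -0.08 in late and 0.08 to 0.28 in early arrays, which did not overlap. Furin, the convertase that cleaves the precursor, differed by -0.48 ± 0.12 and the integrin subunit gene Itgb1 by -0.47 ± 0.12 (SE). Each was lower in 4 of 4 pairs, as were 11.9% of all genes, Furin also without overlap. Limma adjusted p for these was 0.116 to 0.169. The list medians were -0.63, -0.48, -0.14 and -0.02 in Smurf2-/- mixed BL, Smurf2-/- C57B6, wild-type mixed BL and wild-type C57B6 cells. For genotype the list median was -0.11, with 12 of 19 lower. By pair it was -0.14 and -0.32 at late passage in mixed BL and C57B6, and 0.04 and 0.03 at early passage. Mmp2, a gelatinase, differed by -0.49 ± 0.19 (SE) and was lower in 4 of 4 pairs (9.35% of all genes were). Tgm2, a transglutaminase that cross-links matrix proteins, differed by -1.03 ± 0.46 (SE) and was lower in 3 of 4. Both had a limma adjusted p of 0.651.

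**Figure D4:**
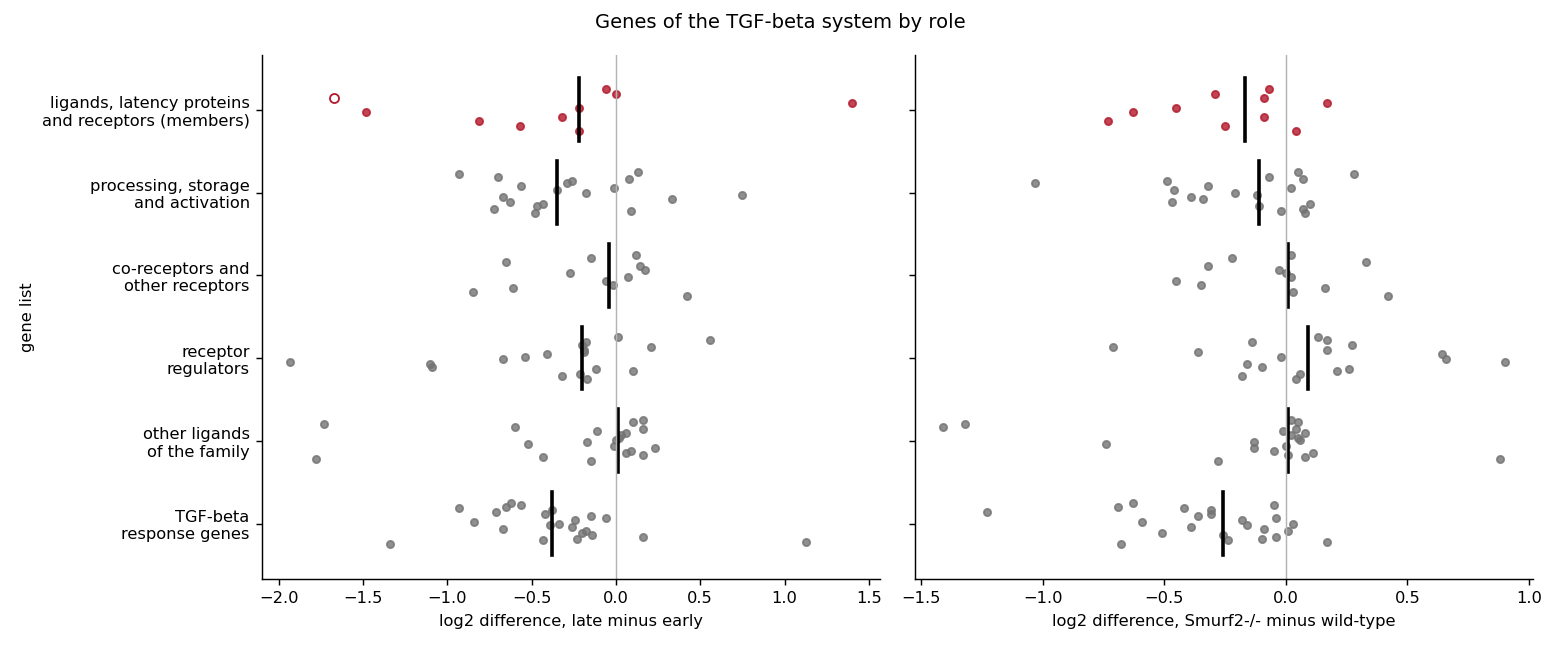
Fitted log2 difference per gene (horizontal axes) for late minus early passage on the left and Smurf2-/- minus wild-type on the right, by gene list. Each point is 1 gene and each black bar is the list's median, drawn for passage without Lrrc32 (open circle), which was chosen by this difference. For passage it is -0.22 for the other 9 ligand, latency and receptor genes, -0.35 for processing and activation genes and -0.38 for response genes, and for genotype -0.17 over all 10, -0.11 and -0.26.

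Co-receptors and the other receptors of the family showed no shift common to all pairs, with 7 of 12 lower at late passage and a median of -0.04. By pair the median was -0.32 and -0.20 in Smurf2-/- mixed BL and C57B6 cells, and 0.11 and 0.10 in wild-type mixed BL and C57B6 cells. Acvrl1, the type I receptor ALK1 of endothelium, differed by -0.61 ± 0.18, Bmpr1b by -0.65 ± 0.27 and the activin receptor gene Acvr2a by -0.27 ± 0.13 (SE, limma adjusted p of 0.19 to 0.355). Between genotypes Bmpr1a and Acvr1b differed by -0.32 ± 0.11 and -0.45 ± 0.18 (SE, limma adjusted p of 0.651 for both). Of 18 regulators of the receptors 14 were lower at late passage, median -0.20. By pair the median was -0.14, -0.07, -0.60 and -0.13 in Smurf2-/- mixed BL, Smurf2-/- C57B6, wild-type mixed BL and wild-type C57B6 cells. The feedback inhibitor genes Smad7 and Pmepa1 differed by -1.09 ± 0.35 and -1.10 ± 0.35, each lower in 3 of 4 pairs, and Tgfbrap1, of a receptor-associated protein, by -0.32 ± 0.09 (SE, limma adjusted p of 0.172 to 0.219). For genotype the median was 0.09, with Cav1, of caveolae, at 0.64 ± 0.28 and Tgfbrap1 at -0.18 ± 0.09 (SE, limma adjusted p of 0.651 for both).

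Other ligands of the family had a median of 0.01 for passage, with 9 of 20 lower. Inhba, the activin A subunit gene, held -1.55 to 0.25 in late and -0.25 to 2.07 in early arrays. It was lower in 4 of 4 pairs (11.9% of all genes were), at -1.78 ± 0.45 (SE). Bmp5 differed by -1.73 ± 0.59 (SE) without overlap, as 4.59% of all genes did on the lower side. Most of the Bmp5 difference lay in wild-type cells, with 2.44 and 3.25 in the early mixed BL and C57B6 arrays and -0.37 to 0.15 in the other 6. Inhbb differed by -0.43 ± 0.12 (SE), and limma adjusted p for the 3 was 0.162 to 0.24. Between genotypes Bmp4 and Bmp5 differed by -1.41 ± 0.47 and -1.32 ± 0.59 (SE, limma adjusted p of 0.651 for both). TGF-beta response genes were lower at late passage in 21 of 23, median -0.38, and lower in Smurf2-/- in 20 of 23, median -0.26, with 42.5% and 44.5% of all genes lower. The list medians for passage were -0.32, -0.84, -0.05 and 0.06 in Smurf2-/- mixed BL, Smurf2-/- C57B6, wild-type mixed BL and wild-type C57B6 cells. For genotype they were -0.42 and -0.51 at late passage in mixed BL and C57B6, and -0.11 and 0.07 at early passage. Of the 8 pericyte and smooth muscle markers 6 were lower at late passage, with 0 called and a median of -0.23. They summed to -5.35 and -3.51 in the late Smurf2-/- mixed BL and C57B6 arrays and -0.43 and -0.07 in the late wild-type ones, against 1.0 and 0.93 in the early Smurf2-/- and 1.28 and -3.51 in the early wild-type mixed BL and C57B6 arrays. Their pair medians were -0.73, -0.45, -0.10 and 0.32 in Smurf2-/- mixed BL, Smurf2-/- C57B6, wild-type mixed BL and wild-type C57B6 cells, and their part in the response gene medians was not tested. The matricellular genes Ccn2 and Ccn1 differed with passage by -1.34 ± 0.29 and -0.84 ± 0.24 and the protease inhibitor gene Timp1 by -0.56 ± 0.16 (SE, limma adjusted p of 0.137 to 0.19). Tgfbi, a secreted adhesion protein gene named after its values were seen, lay on the opposite side, at -0.21 to 1.01 in late and -1.63 to 0.43 in early arrays. Between genotypes Tsc22d1, a leucine zipper gene, held -0.41 to -0.11 in Smurf2-/- and 0.11 to 0.56 in wild-type arrays, a difference of -0.51 ± 0.11 (SE, limma adjusted p = 0.651), and Ccn1 differed by -0.59 ± 0.24 (SE, limma adjusted p = 0.651).

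Genes with the values nearest to those of a member were found as the smallest root mean squared difference over the 8 arrays, among all 17501 genes. Lrrc32 was nearest to Slc27a3, of a fatty acid transport protein family, and Sncg, gamma-synuclein, each at 0.30 log2 units, then to the apoptosis gene Pmaip1 at 0.34, Clca3a1 at 0.37 and the fatty acid binding protein gene Fabp3 at 0.39. Ltbp4 was nearest to Slc7a11, the cystine transporter gene, at 0.25, then to the transcription factor gene Nfil3 at 0.34 and the amino acid transporter gene Slc7a5 at 0.36. Slc7a11 held 1.29, 0.28, 0.89 and 0.56 in the late Smurf2-/- mixed BL, Smurf2-/- C57B6, wild-type mixed BL and wild-type C57B6 arrays, and -0.33, -0.28, -0.78 and -0.88 in the early arrays of the same 4 kinds. For Ltbp2 the nearest were Ccdc80 at 0.42, the noncoding RNA gene Malat1 at 0.43 and Ccn2 at 0.49. Tgfb2 was nearest to Amotl2 and Vgll3, each at 0.26, and Pdlim5 at 0.27, and Tgfb3 to Fgd3, Lims2 and Nuak1 at 0.40, 0.42 and 0.44. Arrays are the only points in this measure, and all genes share their scaling.

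**Figure D5:**
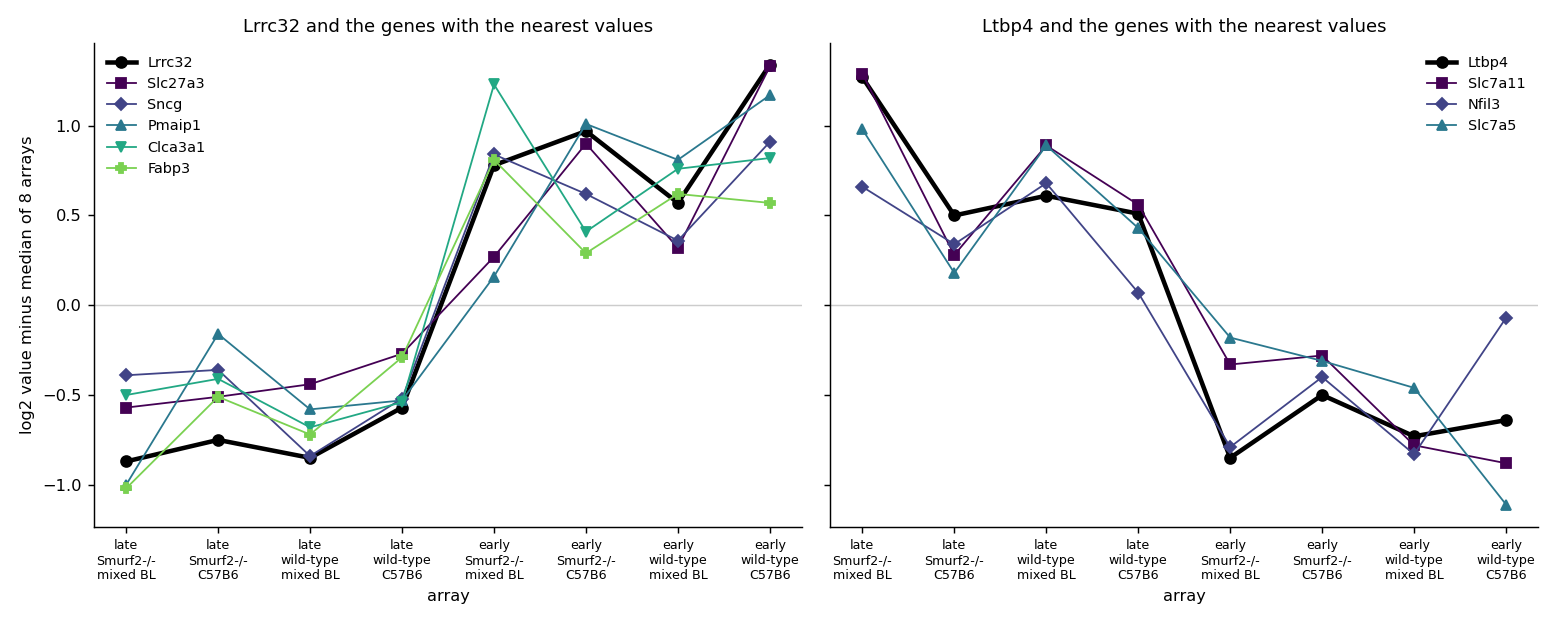
Log2 value minus the gene's median (vertical axis) in each of the 8 arrays (horizontal axis), for Lrrc32 with its 5 nearest genes on the left and Ltbp4 with its 3 nearest genes on the right. Lrrc32 is the black line below 0 in all late arrays, and Ltbp4 the black line above 0 in all late arrays.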

How the data were processed

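The authors deposited log2 values for 8 arrays. Row medians of 5e-07 or less show that each transcript cluster had been centred. Normalisation and probe summary are not given in the labels, and builds mm8 and mm9 are named, with no role, per the submitters' processing notes. Names came from the platform annotation. Of 19134 clusters with 1 symbol, 19067 matched a RefSeq table by gene identifier. Clusters of a gene were averaged. Centred values hold no mean level, so no filter on dim clusters and no mean-variance trend were applied.

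All 17501 genes were fitted with limma 3.58.1 in R 4.3.3: genotype, background and passage class additively (4 residual degrees of freedom), then with 1 interaction in turn (3), with Benjamini-Hochberg adjustment over all genes and a threshold of 0.05. The fit was tested on simulated data. The number of arrays limits the precision, and the labels give no scan or extraction batch. The title number that could serve as replicate is the passage class, so the additive fit holds that block. Alternatives were single clusters, quantile normalisation, array weights, all pairwise interactions, the replicate block changed, and each array left out.

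The genes, lists and naming rules were chosen with earlier results of these data known. The naming rule gave every member, the 3 genes per list of smallest p for passage and the 2 for genotype, and the nearest genes of members spanning over 1.5 log2 units.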

Additional observations from a re-analysis of the deposited data

Results flagged for a closer look

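In 3 of the 60 sets of 4 arrays examined (10 genes by the 2 levels of each factor), 1 array lay far from the other 3 by Dixon's gap test, and chance gives about 1 in 20. Tgfb2 in the late Smurf2-/- C57B6 array was at -1.09, with the other late arrays at -0.05 to 0.00. Ltbp3 in the same array was at -0.66, with the other C57B6 arrays at 0.28 to 0.41. Ltbp4 in the late Smurf2-/- mixed BL array was at 1.27, with the other late arrays at 0.50 to 0.61. No interaction passed the limma test in the 10 genes, with adjusted p of 0.604 or more.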

How the results depend on the processing

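With 1 array per combination, single arrays carry weight. Genes called for passage (3 as reported) numbered 0 with each transcript cluster fitted alone and with all pairwise interactions, and 0 to 2 with 1 array left out. For genotype (5) they were 3 with clusters alone, 0 after quantile normalisation, 0 with all pairwise interactions and 0 to 1 with 1 array left out. For background (14) they were 66 with clusters alone, 1 after quantile normalisation, 1708 with array weights, 1 with all pairwise interactions and 1 to 21 with 1 array left out. The array weight estimate did not converge. The mean-variance trend was not run, because centred values hold no mean level.

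With late and early arrays paired in a replicate block by culture, 0 genes were called for passage. With no replicate block, 4 were called for genotype and 14 for background.

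None of the 29 tested differences of the 10 genes became called under these alternatives, and in 338 of 377 refits they kept direction and side of the threshold. None was called as reported and most refits called few genes of any kind. The count therefore mainly records direction and does not show that the differences are stable. After quantile normalisation the sign turned for Tgfbr1 with passage (0.10), Lrrc32 with genotype (0.11) and Tgfb3 with background (-0.10), and with array weights for Tgfb3 (-0.68) and Ltbp4 (-0.10) with background. The cause was not tested. With 1 array left out the sign turned for passage in Tgfbr1 (-0.19 to 0.23) and Tgfbr2 (-0.21 to 0.17). For genotype it turned in Tgfb1 (0.00 to 0.11), Tgfb2 (-0.63 to 0.09), Ltbp1 (-0.31 to 0.12), Ltbp4 (-0.04 to 0.32), Lrrc32 (-0.20 to 0.02) and Tgfbr2 (-0.24 to 0.16). For background it turned in Tgfb2 (-0.37 to 0.35), Tgfb3 (-0.48 to 0.71), Ltbp2 (-0.30 to 0.83), Ltbp4 (-0.10 to 0.26), Tgfbr1 (-0.05 to 0.30) and Tgfbr2 (-0.23 to 0.17). The passage difference was -1.78 to -1.57 for Lrrc32, 1.19 to 1.53 for Ltbp4 and -2.03 to -0.90 for Ltbp2.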
